A study of Mus musculus with 6 samples.

Results

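Nucleoporins build the nuclear pore complex, and nuclear transport receptors carry protein and RNA through it. The genes described here are all those in the value table whose symbol begins as that of a nucleoporin (Nup, Nupl, Pom121), an importin (Ipo, Kpna, Kpnb, Tnpo), an exportin (Xpo) or an mRNA export receptor (Nxf, Nxt). This rule found 50 of 15267 genes, 23 of them nucleoporins or Pom121 genes and 27 transport receptor genes. Kpna2, Ipo7 and Nup35 were not analysed here.

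The arrays measured total RNA of E14Tg2a.4 cells, a mouse embryonic stem cell line, on day 4 after lipid transfection. Cells received the siRNA siFip1-2, the siRNA siFip1-3, or the lipid without siRNA (mock), with 2 arrays in each of the 3 groups. Both siRNAs target Fip1l1, which encodes the Fip1 subunit of the complex that recognises poly(A) signals, and a non-targeting siRNA was not among the groups. The titles carry a suffix that same-numbered arrays of the 3 groups share and that differs between replicates 1 and 2. The labels do not say what it marks or whether the replicates were separate cultures, so p-values reflect a spread between samples that may be technical.

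A pore consists of ring-shaped scaffolds, among them the Y complex and the inner ring, a membrane anchor, and a central channel lined with phenylalanine-glycine repeats. Importins bind their cargo in the cytoplasm and release it in the nucleus on meeting Ran-GTP, whereas exportins bind cargo together with Ran-GTP in the nucleus. Most mRNA leaves by a different route, with the Nxf1-Nxt1 dimer, which does not depend on Ran. In mouse embryonic stem cells the choice among importin alpha subtypes is known to matter for pluripotency and neural differentiation.

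Fip1l1 itself had log2 values of 8.26 and 7.79 with siFip1-2 and 8.39 and 7.86 with siFip1-3, against 9.65 and 9.74 in mock cells. Its mean level after depletion was 32.5% of mock (log2 difference -1.62, limma adjusted p = 0.00176). All 10 embryonic stem cell markers were measured, at mean log2 levels of 9.85 to 14.5. Of 8 fibroblast markers, 5 lay below the 25th percentile of all genes. Thy1 (mean log2 level 6.49), Pdgfrb (5.22) and Dcn (4.71) lay above it. In limma 0 of these 18 markers passed, with 1 stem cell marker and 0 fibroblast markers at an unadjusted p under 0.05. With the replicate number as a block 0 fibroblast markers and 3 stem cell markers passed, of which Nanog was higher (difference 0.22, adjusted p 0.0312) and Tdgf1 (-0.29, 0.0222) and Lin28a (-0.43, 0.0229) were lower. By that fit 8.43% of all genes were higher and 11.7% lower.

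The first question was which pore and transport genes differed in depleted cells. It was answered with the mean of both siRNAs minus mock. Xpo5, Xpo4, Nup155, Kpna6 and Kpna1 fell, and 0 of the 50 genes rose. The falls of Xpo5 and Xpo4 were the largest among the 50 and left less than 50% of the mock level. Among all genes 0.884% were called lower with less than 50% of mock left. A gene is said to have passed where limma's p, adjusted by Benjamini-Hochberg over all 15267 genes, was under 0.05. By that rule 6.19% of all genes were lower and 4.15% higher, so 5 lower genes of 50 (10%) do not set these genes apart from the rest. Among genes within the middle 50% of the members' levels 10% of all such genes and 3 of the 24 members there were lower. At an unadjusted p under 0.05, 10 of the 50 were lower and 2 higher (13.7% and 10.6% of all genes). With the replicate number as a block, 9 of the 50 were lower and 1 higher (11.7% and 8.43% of all genes).

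Over the 50 genes the median log2 difference was -0.08, against -0.0015 over all genes, and 33 of the 50 differences were below 0 (50.4% of all genes). The middle part of the distribution ran from -0.19 to 0.08 (25th to 75th percentile), against -0.15 to 0.13 over all genes. All 4 siRNA arrays lay below both mock arrays for 13 of the 50 genes (18.4% of all genes), and above both for 4 (15.2% of all genes). The median of the 50 was -0.09 in replicate 1 and -0.06 in replicate 2. For 20 of the 50 genes (40%), close to the 40.3% of all genes, both replicates of each group differed in the same direction in all 3 groups. Of these 20, 8 were higher in replicate 2 (22.6% of all genes) and 12 were lower (17.6% of all genes).

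**Figure D1:**
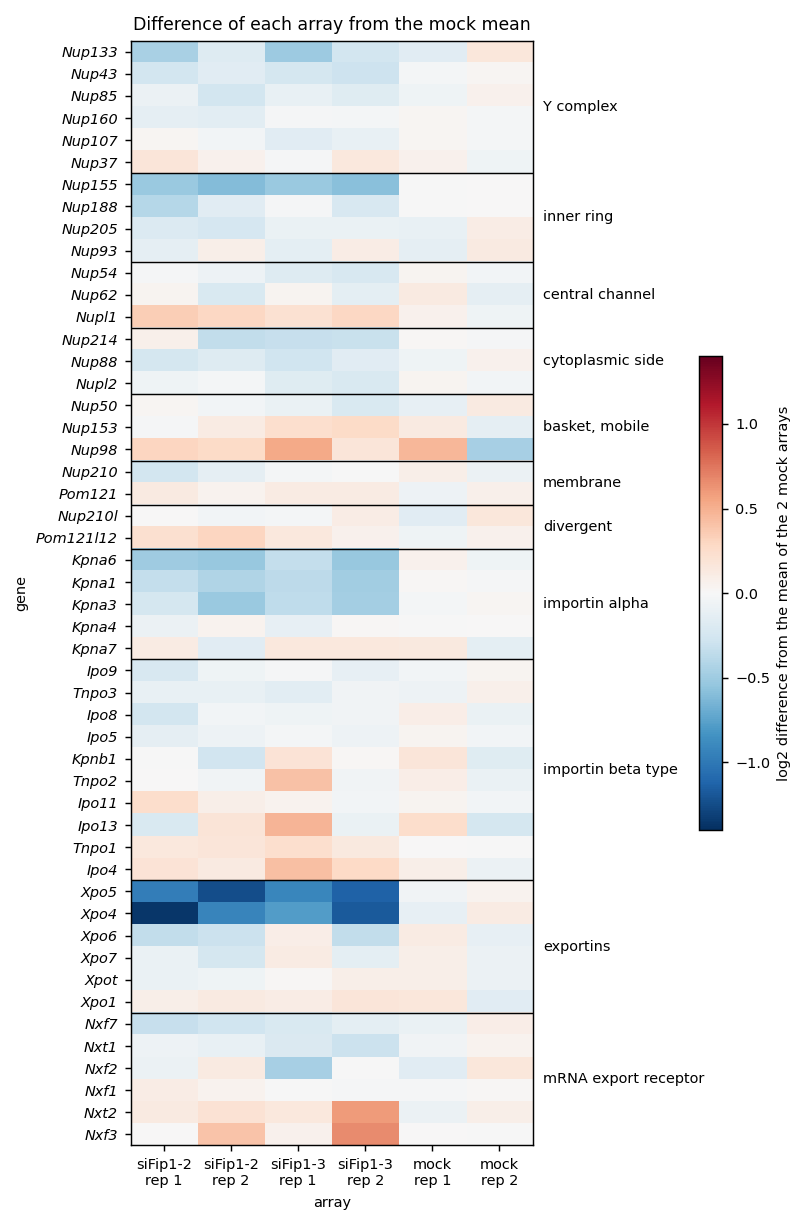
Each row is 1 of the 50 genes, ordered by role, and each column 1 array. Colour gives the log2 difference from the mean of the 2 mock arrays, with blue for lower. The rows of Xpo5 and Xpo4 are the darkest blue on all 4 siRNA arrays, and most other rows are pale.

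**Figure D2:**
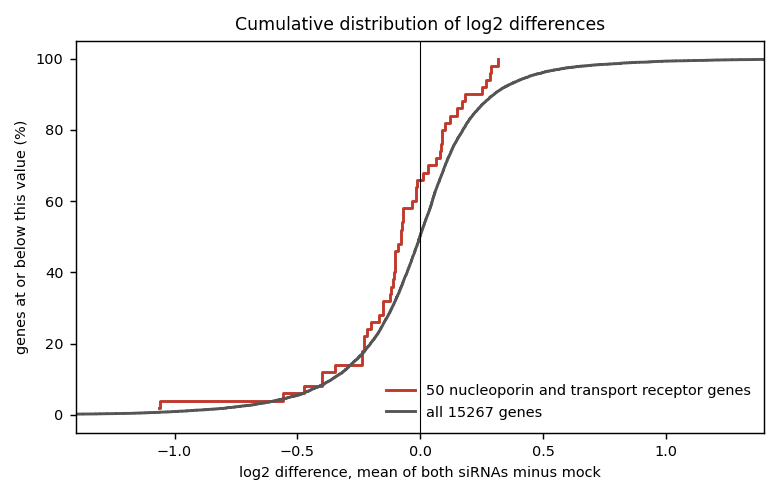
Cumulative share of genes (vertical axis, %) by log2 difference of the mean of both siRNAs minus mock (horizontal axis), for the 50 genes (red) and all 15267 genes (grey). The red curve crosses the middle at -0.08 and the grey curve at -0.0015. The red curve runs from -1.06 to 0.32.

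Exportins held the largest changes. Of 6 measured, 2 fell, where 6.19% of all genes were lower. Xpo5 carries microRNA precursors out of the nucleus. Its log2 values were 7.73 and 7.46 with siFip1-2 and 7.79 and 7.57 with siFip1-3, against 8.66 and 8.74 in mock cells. Every siRNA array thus lay well below both mock arrays. The difference was -1.06 (SE 0.124, 95% interval -1.35 to -0.78, limma adjusted p = 0.00233), which is 47.9% of mock. The adjusted p was 0.00211 to 0.0360 when any 1 array was left out. Here and below, a fit without 1 mock array sets the siRNA arrays against a single mock array, which is assumed to vary like the siRNA groups.

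Xpo4, which exports the translation factor eIF5A and is known to import Sox2, fell as far. Its log2 values were 5.95 and 6.40 with siFip1-2 and 6.54 and 6.14 with siFip1-3, against 7.20 and 7.43 in mock cells. The siRNA arrays scattered more than for Xpo5 but did not reach the mock arrays. The difference was -1.06 (SE 0.175, 95% interval -1.46 to -0.66, limma adjusted p = 0.00858), and the call ended without mock replicate 2 (adjusted p = 0.0931).

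The other 4 exportin genes did not pass. Xpo1, the main receptor for leucine-rich export signals, had log2 values of 11.77 and 11.82 with siFip1-2 and 11.80 and 11.86 with siFip1-3, against 11.86 and 11.53 in mock cells. The groups overlapped, and the difference was 0.12 (95% interval -0.10 to 0.34). For Xpo6, which exports actin with profilin, the difference was -0.23, for Xpo7 -0.09 and for the tRNA exporter Xpot -0.01.

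**Figure D3:**
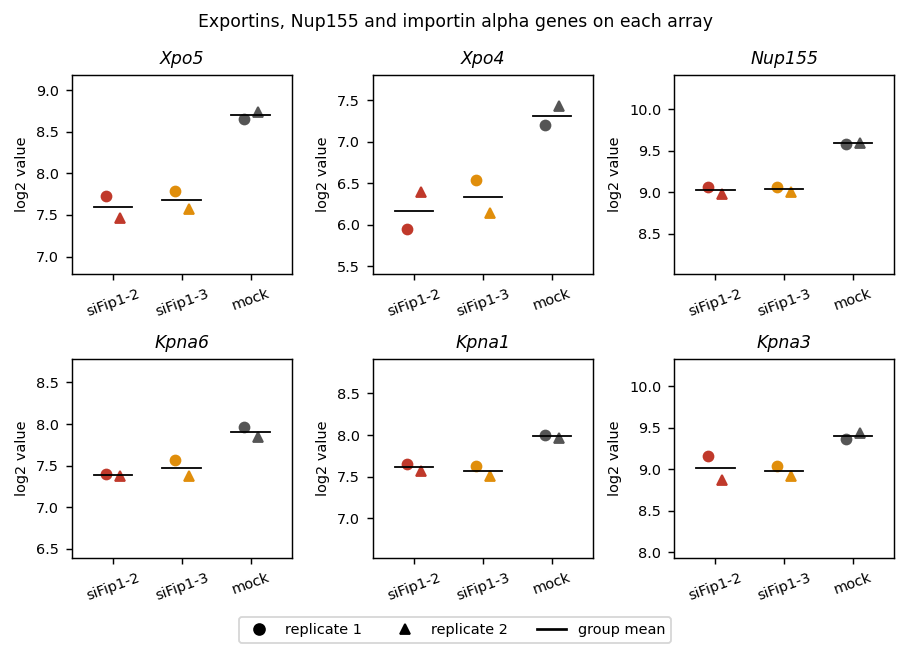
Log2 value (vertical axis) on each array for the 5 genes that passed and for Kpna3, by group (siFip1-2, siFip1-3, mock). Circles are replicate 1, triangles replicate 2 and lines group means, and every panel spans the same log2 range. In each panel the 4 siRNA arrays lie below both mock arrays.

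Importin alpha subtypes recognise the classical nuclear localisation signal and hand the cargo to Kpnb1. Of 5 measured, Kpna6 and Kpna1 fell (6.19% of all genes were lower), and Kpna3, Kpna4 and Kpna7 did not pass. Kpna6 had log2 values of 7.40 and 7.37 with siFip1-2 and 7.57 and 7.38 with siFip1-3, against 7.97 and 7.84 in mock cells. The difference was -0.47 (SE 0.113, limma adjusted p = 0.0343), or 72.0% of mock. Kpna1 had log2 values of 7.65 and 7.56 with siFip1-2 and 7.62 and 7.50 with siFip1-3, against 8.01 and 7.97 in mock cells. The difference was -0.40 (SE 0.106, limma adjusted p = 0.0486), or 75.7% of mock.

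Both calls were lost in fits with 1 array left out. Kpna6 passed under all 6 alternatives that kept every array, and Kpna1 under 3 of them. Kpna6 passed without siFip1-3 replicate 1 (adjusted p = 0.0401) and missed the threshold without any other single array (0.0798 to 0.160). Kpna1 missed it without any 1 array (0.0722 to 0.191), after median centring (0.0644), after quantile normalization (0.0614) and with unnamed probe sets included (0.0504). Kpna3 lay just beyond the threshold, with log2 values of 9.15 and 8.87 with siFip1-2 and 9.04 and 8.92 with siFip1-3, against 9.37 and 9.43 in mock cells. Its difference was -0.40 (limma adjusted p = 0.0539, or 0.0138 with the replicate block), and all 4 siRNA arrays lay below both mock arrays. Kpna4 had a difference of -0.03 (95% interval -0.25 to 0.18), and Kpna7, an oocyte and early embryo subtype, one of 0.06 (-0.25 to 0.38).

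Importin beta type receptors bind cargo or an adaptor and Ran. Of 10 measured, 0 passed in limma, and 1 had an unadjusted p under 0.05 (24.3% of all genes). Kpnb1, the partner of all importin alpha subtypes, had log2 values of 11.46 and 11.20 with siFip1-2 and 11.67 and 11.48 with siFip1-3, against 11.64 and 11.30 in mock cells. The groups overlapped, and the difference was -0.02 (95% interval -0.29 to 0.26). Ipo4, an importer of histones, had log2 values of 9.63 and 9.56 with siFip1-2 and 9.86 and 9.72 with siFip1-3, against 9.53 and 9.35 in mock cells. Its difference of 0.25 did not pass without the replicate block (limma adjusted p = 0.148) and passed with it (0.0421). Tnpo1, the receptor of proline-tyrosine signals, had a difference of 0.17, with the 4 siRNA arrays above both mock arrays. For the SR protein importer Tnpo3 it was -0.10, and for Tnpo2 0.08. For Ipo5, Ipo8, Ipo9, Ipo11 and Ipo13 the differences lay between -0.11 (Ipo9) and 0.09 (Ipo13).

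Among the 4 inner ring genes Nup155 fell (6.19% of all genes were lower) and the others did not pass. Nup155, an inner ring subunit needed to assemble pores, had log2 values of 9.07 and 8.98 with siFip1-2 and 9.07 and 9.00 with siFip1-3, against 9.58 and 9.60 in mock cells. The siRNA arrays lay close together, and all 4 were below both mock arrays. The difference was -0.56 (SE 0.0893, 95% interval -0.76 to -0.36, limma adjusted p = 0.00748), or 67.9% of mock, and the call ended without mock replicate 2 (adjusted p = 0.0742). For its inner ring partners the differences were -0.20 (Nup188), -0.15 (Nup205) and -0.02 (Nup93).

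In the Y complex, the scaffold of the outer rings, 0 of 6 members passed in limma. At an unadjusted p under 0.05 there were 2 (24.3% of all genes). Nup133, a subunit required in mice for neural differentiation, had log2 values of 10.70 and 10.98 with siFip1-2 and 10.65 and 10.90 with siFip1-3, against 11.00 and 11.31 in mock cells. In every group replicate 2 was higher than replicate 1. The difference from mock was -0.35 (limma adjusted p = 0.128), and with the replicate block it passed (0.00544). Within a replicate number, siRNA minus mock was -0.30 and -0.35 in replicate 1 and -0.33 and -0.41 in replicate 2 (siFip1-2, then siFip1-3). Nup43 had a difference of -0.24 (limma adjusted p = 0.109, or 0.0437 with the block). For Nup85 (-0.15), Nup160 (-0.08), Nup107 (-0.07) and Nup37 (0.09) neither fit passed. Nup107 had log2 values of 10.87 and 10.81 with siFip1-2 and 10.69 and 10.74 with siFip1-3, against 10.87 and 10.82 in mock cells.

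None of the members from the channel, the faces or the membrane of the pore passed in limma, with log2 differences between -0.23 (Nup214) and 0.32 (Nup98). Of these 11 genes, 2 (Nup88 and Nupl1) had an unadjusted p under 0.05 (24.3% of all genes). Nup88, on the cytoplasmic face, had a difference of -0.22, with all 4 siRNA arrays below both mock arrays (limma adjusted p = 0.136, or 0.0426 with the block). Its partner Nup214 had -0.23 and Nupl2 had -0.12. In the channel Nup54 had -0.12 and Nup62 -0.07. Nupl1, the channel subunit also called Nup58, had 0.29, with all 4 siRNA arrays above both mock arrays (limma adjusted p = 0.148). For the membrane-anchored Pom121 the difference was 0.10 and for Nup210 -0.10.

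Nup98, a mobile nucleoporin, had 1 mock array that stood apart. Its log2 values were 8.53 and 8.50 with siFip1-2 and 8.75 and 8.39 with siFip1-3, against 8.69 and 7.76 in mock cells. The difference was 0.32 (95% interval -0.21 to 0.84, limma adjusted p = 0.465). Set against mock replicate 2 alone it was 0.78, and against mock replicate 1 alone -0.15. The adjusted p of 0.0400 for the 0.78 takes its spread from the siRNA groups, and so leaves out the distance between the mock arrays. Nup153, a basket subunit, had log2 values of 11.35 and 11.47 with siFip1-2 and 11.60 and 11.63 with siFip1-3, against 11.48 and 11.24 in mock cells, a difference of 0.15. Nup50, which binds importin alpha and Nup153, had -0.08.

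The mRNA export receptors did not pass (0 of 6 in limma). Of these 6, 1 (Nxf7) had an unadjusted p under 0.05 (24.3% of all genes). Nxf1, the receptor for bulk mRNA, had log2 values of 10.62 and 10.56 with siFip1-2 and 10.51 and 10.50 with siFip1-3, against 10.50 and 10.53 in mock cells. Its difference of 0.03 had a 95% interval of -0.14 to 0.21. The cofactor Nxt1 had a difference of -0.17 and the related Nxt2 one of 0.27, the siRNA arrays of Nxt1 all below and those of Nxt2 all above both mock arrays. Nxf2 (-0.11), Nxf3 (0.28) and Nxf7 (-0.24) are tissue-restricted relatives. Nxf2, Nxf7 and Pom121l12 (0.18) lay below the 25th percentile of level, where expression is uncertain without detection calls. Nxf3 lay just above that cut, at percentile 25.5. Nup210l, a testis relative of Nup210, had a difference of 0.01.

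Each siRNA was also set against mock, and these comparisons share the mock arrays. With siFip1-2 and with siFip1-3, 3 of the 50 genes passed, where 6.92% and 5.74% of all genes did. They were Xpo5, Xpo4 and Nup155 in both cases. For Xpo5 the log2 difference was -1.11 with siFip1-2 and -1.02 with siFip1-3, for Xpo4 it was -1.14 and -0.97, and for Nup155 -0.56 and -0.55. With the replicate block 7 genes passed for siFip1-2 (17.2% of all genes) and 8 for siFip1-3 (14.1% of all genes), and Kpna1, Kpna3, Kpna6 and Nup133 were among both.

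A direct test of siFip1-2 minus siFip1-3 called 0 of the 50 genes in limma (0% of all genes), and 0 had an unadjusted p under 0.05 (4.22% of all genes). With the replicate block 0 were called and 2 had an unadjusted p under 0.05 (8.57% of all genes). The differences lay between -0.24 (Kpnb1) and 0.25 (Nxf2), and their 95% intervals reached from -0.76 to 0.67, so this test with 2 arrays a group does not show that the siRNAs acted alike.

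Further genes of the pore and of the export pathway were taken from a list of 35, of which 30 were measured. In limma 3 rose and 4 fell, where 4.15% of all genes rose and 6.19% fell. With the replicate block 5 were higher and 7 lower (8.43% and 11.7% of all genes). The additions were Thoc3 (difference 0.28, adjusted p with the block 0.0253), Chtop (0.22, 0.0460), Ranbp2 (-0.26, 0.0393), Alyref (-0.27, 0.0312) and Mcm3ap (-0.37, 0.0289). Tpr, Nutf2, Thoc7, Sarnp and Ddx19a were not analysed here. Of 9 further pore genes 4 fell and 1 rose, and 7 had an unadjusted p under 0.05 (24.3% of all genes). Ndc1, the membrane protein that anchors the inner ring, fell most. Its log2 values were 8.07 and 8.05 with siFip1-2 and 8.31 and 8.14 with siFip1-3, against 9.02 and 9.12 in mock cells. The difference was -0.93 (SE 0.102, limma adjusted p = 0.00176), or 52.5% of mock, and the call held without any 1 array.

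Ahctf1, which brings the Y complex to chromatin after mitosis, fell by 0.54 on the log2 scale. The Y complex subunits Seh1l and Sec13 fell by 0.37 and 0.36, Sec13 being also a subunit of the COPII vesicle coat. Aaas, a pore protein that binds Ndc1, rose by 0.42. The limma adjusted p of these 4 genes lay between 0.0168 (Ahctf1) and 0.0459 (Seh1l). Seh1l missed the threshold without any 1 array (0.0654 to 0.216). Sec13 missed it without any 1 array except siFip1-3 replicate 1 (0.0634 to 0.182), and Aaas without any except siFip1-3 replicate 2 (0.0808 to 0.264). Ahctf1 missed it without siFip1-2 replicate 2 (0.0540), mock replicate 1 (0.0778) or mock replicate 2 (0.129).

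Of 15 genes that prepare mRNA for export, Eny2 and Poldip3 rose and 0 fell (4.15% and 6.19% of all genes). At an unadjusted p under 0.05 there were 5 (24.3% of all genes), 2 of them with a negative difference. Eny2, a small subunit of TREX-2 and of the SAGA coactivator, had log2 values of 8.26 and 8.13 with siFip1-2 and 8.38 and 8.07 with siFip1-3, against 7.65 and 7.45 in mock cells. The difference was 0.66 (limma adjusted p = 0.0154), and the call ended without siFip1-2 replicate 1 (0.0525) or mock replicate 2 (0.142). Poldip3, which binds the exon junction complex, rose by 0.38 (limma adjusted p = 0.0205). That call ended without either siFip1-2 array (0.0592 and 0.0534) or mock replicate 2 (0.176). Without the variance trend Poldip3, Seh1l, Sec13 and Aaas did not pass (0.0505 to 0.0703), and Seh1l did not pass after median centring (0.0671) or quantile normalization (0.0567) either. In the Ran cycle group 0 of 6 genes passed in limma, and 1 (Cse1l) had an unadjusted p under 0.05 (24.3% of all genes). The difference was -0.03 for the GTPase Ran, -0.15 for its exchange factor Rcc1 and -0.17 for Cse1l, which returns importin alpha to the cytoplasm.

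**Figure D4:**
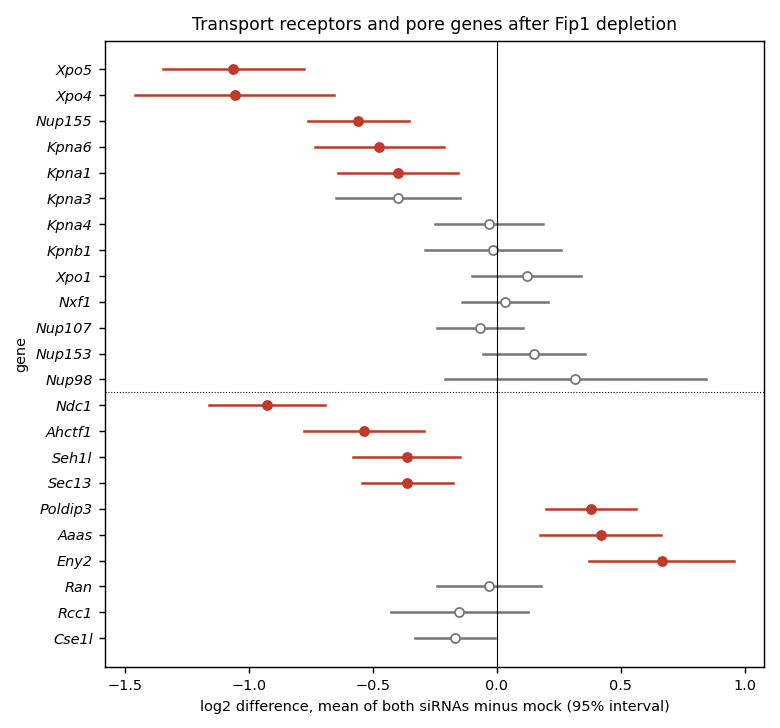
Log2 difference of the mean of both siRNAs minus mock (horizontal axis) with its 95% interval from limma. Above the dotted line are genes among the 50, those that passed and selected others. Below it are the further pathway genes that passed, with Ran, Rcc1 and Cse1l. Most of the 30 measured pathway genes are therefore not shown. Filled red points passed an adjusted p of 0.05 and open grey points did not. Xpo5, Xpo4 and Ndc1 lie farthest to the left, at -1.06, -1.06 and -0.93.

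Promoters are shown for genes among the 50. These are the most strongly lowered receptor, the pore subunit of the 50 that fell, and a Y complex gene that did not pass. RefSeq promoter windows (GRCm38.p6) matched 41 of the 50 genes, and the 250 bases before the annotated start were searched on both strands. The letters searched were CGCATGC (or GCATGCG on the other strand), the centre of the NRF1 motif, CCGGAAG (or CTTCCGG) for ETS factors, and CCAAT (or ATTGG). Overlapping matches of a motif counted as 1, and matches of different motifs did not overlap in the windows shown. Capitals mark the matches. The windows are chr17:46202561-46202810 (plus strand) for Xpo5, chr10:117792706-117792955 (minus strand) for Nup107 and chr15:8109063-8109312 (plus strand) for Nup155, each written 5′ to 3′.
Xpo5: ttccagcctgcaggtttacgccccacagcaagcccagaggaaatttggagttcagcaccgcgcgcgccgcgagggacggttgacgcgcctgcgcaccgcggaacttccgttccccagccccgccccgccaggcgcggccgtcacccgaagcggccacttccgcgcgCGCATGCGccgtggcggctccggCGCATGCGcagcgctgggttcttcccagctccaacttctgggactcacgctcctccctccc
Nup107: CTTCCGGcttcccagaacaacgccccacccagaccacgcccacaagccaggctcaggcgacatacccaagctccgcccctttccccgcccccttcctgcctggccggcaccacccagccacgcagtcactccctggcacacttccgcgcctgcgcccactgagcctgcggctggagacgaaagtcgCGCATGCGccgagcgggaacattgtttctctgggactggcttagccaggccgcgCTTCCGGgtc
Nup155: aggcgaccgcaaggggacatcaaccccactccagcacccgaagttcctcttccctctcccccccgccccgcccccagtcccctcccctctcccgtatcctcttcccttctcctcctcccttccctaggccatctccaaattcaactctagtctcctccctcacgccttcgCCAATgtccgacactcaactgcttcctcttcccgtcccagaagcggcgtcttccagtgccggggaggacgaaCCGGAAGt
Xpo5 had 2 NRF1 matches, Nup107 had 1 and 2 ETS matches, and Nup155 had 1 ETS match and 1 CCAAT box. Xpo4, Kpna1 and Kpna6, 3 of the 5 genes that fell, were not searched. Counted by window, the NRF1 letters were in 4 of the 53 windows of the 41 genes (those of Xpo5, Nup107, Nup50 and Nup62), or 7.55%, and in 3.02% of all 32851 windows. The ETS letters were in 7 of the 53 (Ipo4, Nup107, Nup155, Nup37, Nup54 and Tnpo3), or 13.2%, and in 6.91% of all windows. The CCAAT box was in 23 (43.4%), and in 33.8% of all windows. The 53 windows of the 41 genes held a median of 21 CpG dinucleotides, against 6 over all windows. The NRF1 and ETS letters each contain a CpG, and the shares were not compared at equal CpG content.

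The position of the probes within a transcript was not used here. For all genes above, a change in the amount of mRNA and a change of the transcript's end cannot be told apart. In bulk RNA, fewer cells of a type and less RNA per cell cannot be told apart either. Mock cells received no siRNA, so an effect of Fip1l1 depletion and one of receiving any siRNA cannot be told apart.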

How the data were processed

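Per the submitters' processing notes, RMA made the deposited log2 values (1 per probe set) from biotin-labelled total RNA on Affymetrix whole mouse genome arrays. RMA corrects background, normalizes the arrays against each other and combines the probes of a set. The version, the settings and how probe sets were defined were not stated. The array medians lay between 6.08 and 6.12, and no further scaling was applied. Of 16556 probe sets, 15270 had 1 gene, 0 several and 1286 none. Names came from the gene number through a RefSeq gene table (GRCm38.p6), and the brighter of 2 probe sets was kept for 3 genes, none among the 50, which left 15267 genes. No dim probe set was filtered.

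limma 3.58.1 in R 4.3.3 fitted 3 group means to all 6 arrays (3 residual degrees of freedom), with a variance trend over level. Tests are two-sided, adjusted by Benjamini-Hochberg over 15267 genes. Titles share a suffix across the groups for each replicate number, and the deviations of same-numbered arrays correlated at 0.383, 0.281 and 0.443 over genes. The main fit does not use this pairing. A second fit took the numbers to pair the arrays, and the fit with that block is printed where it changes a call.

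The members and lists were chosen with earlier results of these data known. Full values are given for members past the threshold and for 7 measured members named in the plan (Kpnb1, Kpna1, Xpo1, Nxf1, Nup98, Nup153 and Nup107). Kpna3, Ipo4, Nup133 and others close to the threshold, or past it with the replicate block, were added after their values were seen. Pathway genes past the threshold, Ran, Rcc1 and Cse1l were named by the same plan. Arrays number 2 a group, which limits the precision. Python 3.11.15 with matplotlib 3.10.9 drew the figures.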

Additional observations from a re-analysis of the deposited data

How the results depend on the processing

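With the replicate block, 1 of the 50 genes was higher and 9 were lower for the mean of both siRNAs minus mock (8.43% and 11.7% of all genes), against 0 and 5 without it. The siRNA comparisons then called 7 (siFip1-2) and 8 (siFip1-3) genes, against 3 each, and the further pathway genes 5 higher and 7 lower, against 3 and 4. Without the variance trend 1 further pathway gene was higher and 2 were lower. When 1 array was left out, 0 to 1 members were higher and 1 to 4 lower, 0 to 3 passed for siFip1-2, 0 to 3 for siFip1-3, and 0 to 3 further pathway genes were higher and 1 to 4 lower. The lowest count of lower members, 1, came without mock replicate 2, and it was 3 without mock replicate 1, siFip1-2 replicate 2 or siFip1-3 replicate 2. The cause was not tested, beyond the fewer arrays. The median difference of the 50 genes was -0.0795, -0.053 after median centring (all genes 0.0249), -0.0577 after quantile normalization (all genes 0.007), and -0.1015 to -0.0476 when 1 array was left out. Xpo5 and Ndc1 passed under all 12 alternatives. No result named in the text and called by limma changed its sign under the 12. Signal near background limits Nxf2, Nxf7 and Pom121l12, and Nxf3 lay just above the 25th percentile of level.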

Other observations

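The genes that differed between the replicate numbers in the same direction in all 3 groups included Nup133, Nup93 and Kpnb1, at a share of the 50 genes close to that of all genes. Nup133 was higher in replicate 2 by 0.28 with siFip1-2, 0.25 with siFip1-3 and 0.31 in mock cells on the log2 scale. For Nup93 these differences were 0.21, 0.23 and 0.25. Kpnb1 was lower in replicate 2, with differences of -0.26 with siFip1-2, -0.18 with siFip1-3 and -0.34 in mock cells. What the replicate number marks beyond the shared suffix of the titles is not stated in the labels, and these values are given as a description with no test.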
